A study of Mus musculus with 22 samples.

Results

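The Zscan4 genes are a family of near-identical mouse genes, and every gene whose symbol starts with Zscan4 was taken as a member. The tables of expression values held 5 such genes, Zscan4a, Zscan4b, Zscan4c, Zscan4d and Zscan4f, of 24819 genes in all, and the same 5 in both tables. Their levels were read by RNA sequencing of E14 cells, a mouse embryonic stem cell line grown in serum with leukemia inhibitory factor on gelatin, harvested on day 3 of knockdown by small interfering RNAs (siRNAs), which deplete chosen messages. There were 22 libraries of 6 kinds, and every library received a pair of siRNAs. The pairs were siRpl14 with siRpl11, siRpl14 with siDux, siRpl14 with siNT, siRpl11 with siNT, siDux with siNT, and siNT with siNT, the control, called siRpl14+siRpl11, siRpl14+siDux, siRpl14, siRpl11, siDux and siNT below. The labels do not spell out what NT stands for. Depletion by siRNA is partial, and all 6 kinds of library come from 1 cell line. Whether replicates were separate cultures is not in the labels, and a p-value therefore covers just the spread among the libraries at hand, which may be technical.

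By table and by the style of their titles alone, the libraries fall into 3 sets. Set 1 has 8 libraries, 2 each of siRpl14+siRpl11, siRpl14, siRpl11 and siNT. Set 2 has 4 libraries, 1 each of siRpl14+siDux, siRpl14, siDux and siNT, and shares a table with set 1. Set 3 is the other table, with 10 libraries, 2 each of siRpl14+siDux, siRpl14, siDux and siNT and 1 each of siRpl14+siRpl11 and siRpl11. Values are FPKM (fragments scaled by transcript length and library depth), as the authors deposited them, and levels are compared only within a table. A rough estimate from the smallest step between values put depth at 13300000 to 21100000 fragments per library in sets 1 and 2 and at 168000 to 299000 in set 3, where 50.5 to 56.2% of genes are listed at 0, against 30.1 to 32.1% in sets 1 and 2. Markers of embryonic stem cells summed to 4712 to 8889 FPKM over 8 genes in sets 1 and 2, against 4.34 to 15.6 FPKM over 7 markers of fibroblast feeders.

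Zscan4 proteins carry a SCAN domain, through which such proteins pair, and zinc fingers that bind DNA. In mouse they are made in the 2-cell embryo, when the embryo's own genome is first read, and in a small and changing fraction of cultured embryonic stem cells that resembles that stage (2C-like cells), where they are known for lengthening telomeres by recombination and for guarding genome stability. Dux, a homeodomain transcription factor of the same stage, binds and activates Zscan4 genes. Rpl14 and Rpl11 are both part of the ribosome's large subunit, and Rpl11, when free of the ribosome, is known to bind Mdm2, the ligase that keeps p53 low. Zscan4d is described as the main form of the 2-cell embryo, Zscan4c as the main form of embryonic stem cells, and Zscan4c, Zscan4d and Zscan4f as the genes for the full-length protein.

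RefSeq lists 9 Zscan4 entries in 1 cluster on chromosome 7. Those with values here are the protein-coding Zscan4b, Zscan4c, Zscan4d and Zscan4f and the transcribed pseudogene Zscan4a, while 4 pseudogenes of the cluster (Zscan4e, Zscan4-ps1, Zscan4-ps2 and Zscan4-ps3) are not among the genes of the tables. The upstream sequences below show how alike the copies are and which short motifs they share, since in sets 1 and 2 the mean of each of the 5 members lay on the same side of siNT in any one knockdown, and Dux depletion is one of the treatments. They are the 250 bases before the annotated start, read on the strand of the gene, from RefSeq on GRCm38.p6. Capitals mark TGATTCAA, 8 letters of the motif that mouse Dux protein is known to bind, and TATAAA, the TATA box.
Zscan4b promoter (chr7:10905051-10905300, minus strand): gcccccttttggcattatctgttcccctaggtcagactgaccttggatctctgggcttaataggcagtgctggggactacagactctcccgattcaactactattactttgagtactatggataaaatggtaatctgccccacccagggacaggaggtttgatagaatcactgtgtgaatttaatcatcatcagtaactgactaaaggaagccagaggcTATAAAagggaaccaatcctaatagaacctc
Zscan4c promoter (chr7:11005495-11005744, plus strand): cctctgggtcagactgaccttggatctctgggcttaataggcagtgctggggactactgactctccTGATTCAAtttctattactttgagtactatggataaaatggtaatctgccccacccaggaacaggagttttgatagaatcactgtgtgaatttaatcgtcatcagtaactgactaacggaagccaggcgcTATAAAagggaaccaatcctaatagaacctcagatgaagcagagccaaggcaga
Zscan4d promoter (chr7:11166149-11166398, minus strand): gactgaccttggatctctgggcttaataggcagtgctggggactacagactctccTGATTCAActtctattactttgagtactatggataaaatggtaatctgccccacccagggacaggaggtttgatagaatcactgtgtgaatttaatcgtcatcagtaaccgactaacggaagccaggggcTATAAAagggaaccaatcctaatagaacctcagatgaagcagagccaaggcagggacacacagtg
Zscan4f promoter (chr7:11397665-11397914, plus strand): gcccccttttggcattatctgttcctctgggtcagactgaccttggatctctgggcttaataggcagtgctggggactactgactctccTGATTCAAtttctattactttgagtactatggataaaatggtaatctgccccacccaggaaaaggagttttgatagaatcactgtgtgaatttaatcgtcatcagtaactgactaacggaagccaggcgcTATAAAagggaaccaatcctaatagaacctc
Over the 6 pairs of these windows, identity was 94.7 to 99.6% of aligned bases. TGATTCAA was found in 3 of the 4 windows, 184 bases before the start of Zscan4c, 195 bases before that of Zscan4d and 161 bases before that of Zscan4f, and not in the window of Zscan4b. Of all 32851 mouse promoter windows of this length, 0.539% hold these 8 letters on either strand. The full 11-letter motif of mouse Dux was in 0 of the 4 windows and in 0.0304% of all windows. TATAAA was in 4 of 4 windows, 31 to 65 bases before the start, and in 12.4% of all windows. The letters TGCACAC, given for binding by Zscan4 protein, were in 0 of 4 windows and in 3.67% of all. The 4 windows are near-identical copies and do not count as 4 independent promoters beside the shares of all windows. These matches describe letters in a window and are not measured binding.

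The copies are as alike in their transcripts, which limits what a single gene's value means. Over the 10 pairs of longest annotated transcripts (GENCODE M21, GRCm38), identity was 94.8 to 97.8%. Of all stretches of 50 bases in a transcript, the share found unchanged in another member was 85.4% for Zscan4f, 75.9% for Zscan4c, 59.5% for Zscan4a, 47.9% for Zscan4d and 44.3% for Zscan4b. How the authors' counting divided reads that match several copies is not given in the sources used here, so a member's value may hold reads of another, and the sum over the 5 members is given beside them. The strand setting is not given either. The annotated neighbours of the cluster with a value, Vmn1r68, Vmn1r69, Vmn1r70, Nlrp4b and Vmn1r71 before it, Vmn1r72 to Vmn1r76 after it and Mir297-1 inside it, were all listed at 0 FPKM in the 12 libraries of sets 1 and 2.

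The first question was whether depleting Rpl14 changed Zscan4. In set 1 all 5 members rose with siRpl14, by 2.17-fold (Zscan4a) to 2.99-fold (Zscan4d) in mean FPKM, and the libraries of the groups did not overlap for any member. With 2 libraries a group, such separation can arise without a change. Its share over all genes was not counted, here or below. Rpl14 itself had 893 and 402 FPKM in siRpl14, against 1550 and 1417 FPKM in siNT, so the depletion was uneven between the replicates. The family sum differed far less between them. It was 114 and 116 FPKM in siRpl14, against 45.3 and 42.0 FPKM in siNT, a mean of 115 ± 1.503 against 43.7 ± 2.40 FPKM (SD, n = 2 each) and a ratio of 2.63. In bulk RNA, more cells of the 2C-like kind and more RNA per such cell cannot be told apart.

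**Figure D1:**
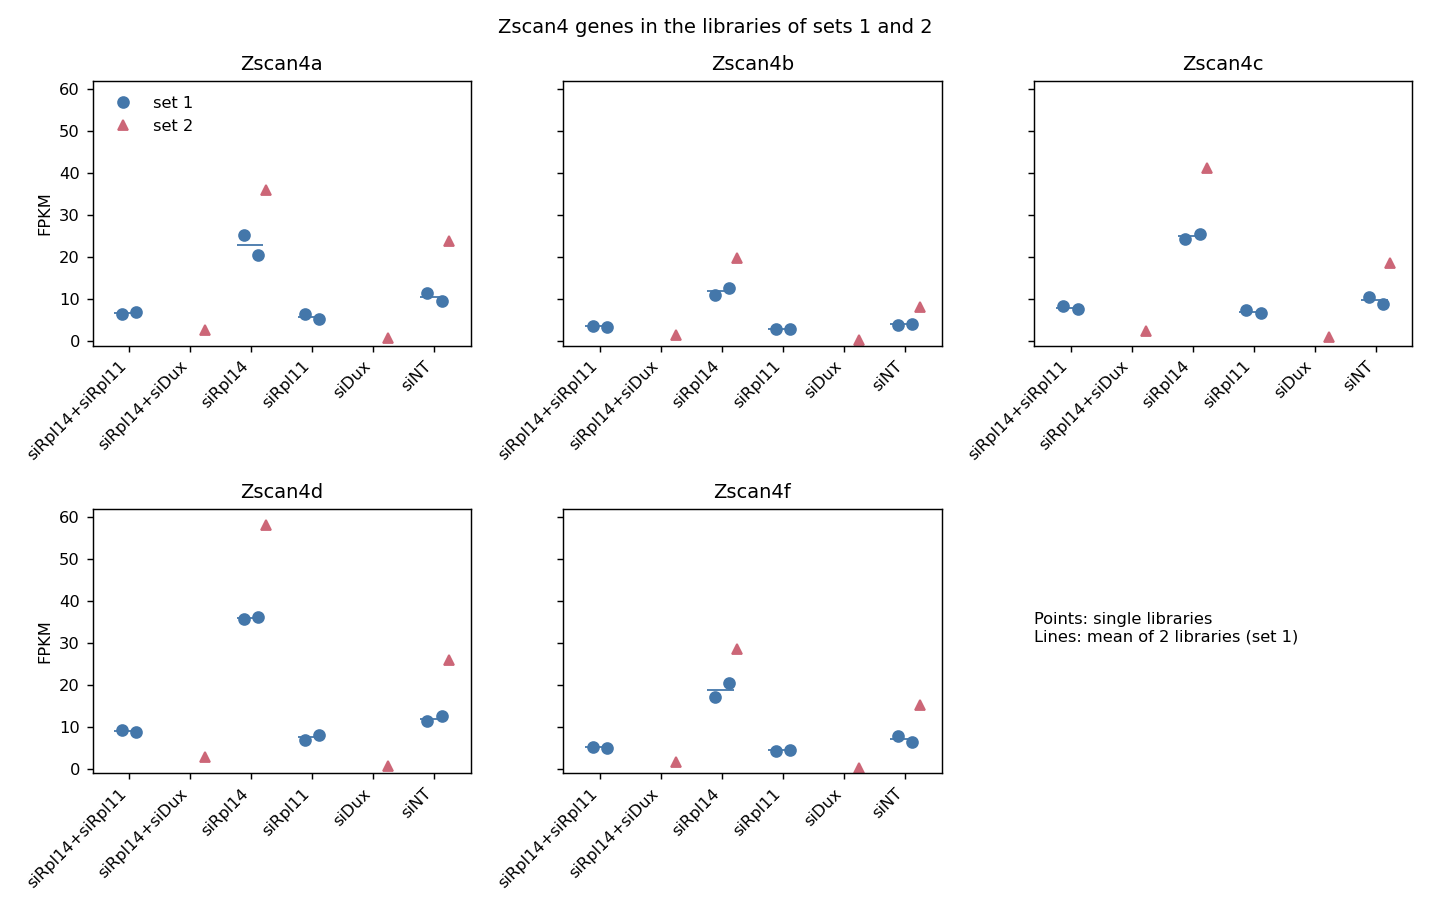
FPKM of each Zscan4 gene (vertical axis) by kind of library (horizontal axis) in set 1 (circles, with a line at the mean of 2 libraries) and set 2 (triangles, 1 library each). In every panel the siRpl14 libraries lie highest within their own set, and the siDux and siRpl14+siDux libraries of set 2 lie near 0, with Zscan4d at 0.688 and 2.92 FPKM.

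Zscan4d, the form described in the 2-cell embryo, was the most abundant member in the siRpl14 libraries of sets 1 and 2. In set 3, at few fragments, its siRpl14 mean of 4.02 FPKM was the lowest of the members. In set 1 Zscan4d had 35.7 and 36.2 FPKM in siRpl14, against 11.3 and 12.7 FPKM in siNT. Zscan4c, the form described in stem cells, had 24.5 and 25.6 FPKM in siRpl14, against 10.6 and 8.96 FPKM in siNT. Zscan4f, the third gene for the full-length protein, had 17.2 and 20.6 FPKM in siRpl14, against 7.88 and 6.51 FPKM in siNT. For each of the 3, both siRpl14 libraries stood above both siNT libraries with a gap wider than either pair's own spread. The transcribed pseudogene Zscan4a had 25.3 and 20.7 FPKM in siRpl14, against 11.6 and 9.64 FPKM in siNT. Zscan4b, the least abundant member in every library of sets 1 and 2 other than siRpl14+siDux, had 11.05 and 12.8 FPKM in siRpl14, against 3.95 and 4.13 FPKM in siNT. These 2 likewise showed no overlap between the groups.

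The change was tested with limma, a linear model fitted to log2(FPKM + 1) of all 12129 genes that had at least 1 FPKM in at least 2 of the 8 libraries of set 1. A call is an adjusted p (Benjamini-Hochberg, over all genes tested) under 0.05. The added 1 makes these log2 fold changes smaller than those of the FPKM for low genes. All 5 members were called higher in siRpl14, in a comparison where 31.5% of all genes were called, 18.1% as higher. The log2 fold change of Zscan4d was 1.51 ± 0.12 (SE; limma, adjusted p = 0.000665) and that of Zscan4b 1.36 ± 0.13 (limma, adjusted p = 0.00117). Zscan4c and Zscan4f both stood at 1.28, with SE 0.12 and 0.14 (limma, adjusted p = 0.00118 and 0.00168). Zscan4a changed least, at 1.05 ± 0.15 (limma, adjusted p = 0.00417). The median over all genes tested was 0.03.

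The single siRpl14 library of set 2 also held more of every member than the siNT library of that set. Zscan4d was at 58.1 FPKM in siRpl14, against 26.1 FPKM in siNT, and Zscan4a, with the lowest ratio, at 35.9 FPKM against 23.9 FPKM. The family sum was 184 FPKM in siRpl14, against 91.8 FPKM in siNT, or 2.00 times as high. Both libraries lay above their counterparts of set 1, although the values share a table: the siNT library of set 2 held more Zscan4 RNA than either siNT library of set 1. Rpl14 in set 2 was at 354 FPKM in siRpl14, against 1025 FPKM in siNT.

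In set 3 the family sum was 38.4 and 45.1 FPKM in siRpl14, against 14.2 and 10.9 FPKM in siNT, a ratio of 3.33 between the means. At the depth of that set these are few fragments. An FPKM of 1.1 to 2.74 was estimated to be worth 1 fragment for these genes, taking the smallest whole numbers that fit the values. The sums then come to an estimated 19 and 26 fragments in the siRpl14 libraries, against 12 and 5 in the siNT libraries. Zscan4c, for example, had 11.3 and 9.88 FPKM in siRpl14, against 3.37 and 2.14 FPKM in siNT. Zscan4d had 1.77 and 6.26 FPKM in siRpl14, against 2.09 and 4.04 FPKM in siNT, so the groups overlapped for the member that changed most in set 1. None of the 5 members was called in set 3 by limma (0 of 5, with 3 of 5 at an unadjusted p under 0.05), where 0.660% of all 13189 genes tested were called. Log2 fold changes there ran from 0.19 (Zscan4d) to 2.68 (Zscan4f).

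**Figure D2:**
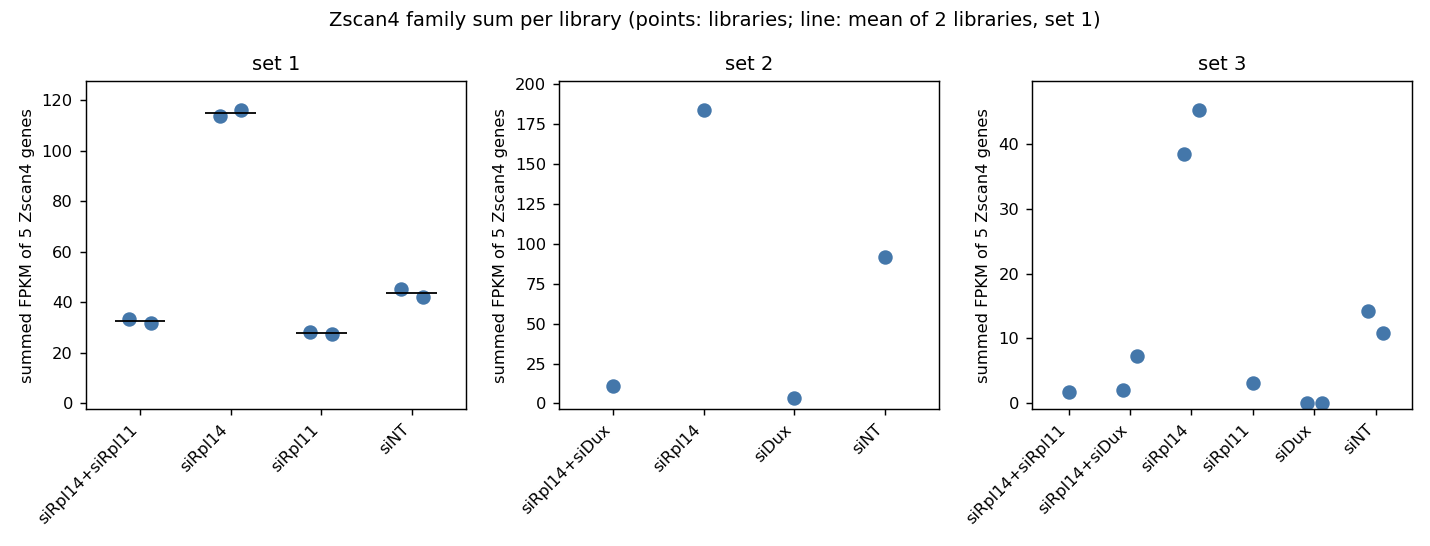
Sum of the FPKM of the 5 Zscan4 genes (vertical axis, a scale for each set) by kind of library, 1 point per library, with a line at the mean of 2 libraries in set 1. The siRpl14 libraries stand highest in every set, at 114 and 116 FPKM in set 1, 184 FPKM in set 2 and 38.4 and 45.1 FPKM in set 3.

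Depleting Rpl11, the other ribosomal protein gene, went with lower and not higher Zscan4. In set 1, Rpl11 stood at 260 and 113 FPKM in siRpl11, against 829 and 661 FPKM in siNT. The family sum was 28.4 and 27.5 FPKM in siRpl11, against 45.3 and 42.0 FPKM in siNT, a mean of 27.9 ± 0.626 against 43.7 ± 2.40 FPKM (SD, n = 2 each). Zscan4a had 6.55 and 5.26 FPKM in siRpl11, against 11.6 and 9.64 FPKM in siNT, and Zscan4d had 7.02 and 8.11 FPKM against 11.3 and 12.7 FPKM. All 5 members had both siRpl11 libraries below both siNT libraries, a pattern that was not counted over all genes. Limma called 4 of them lower, where 44.3% of all genes were called and 28.4% as lower. The log2 fold changes were -0.75 for Zscan4a (adjusted p = 0.00796), -0.60 for Zscan4d (adjusted p = 0.00655), -0.58 for Zscan4f (adjusted p = 0.0133) and -0.42 for Zscan4c (adjusted p = 0.0276), while Zscan4b was at -0.35 and missed the threshold (limma, adjusted p = 0.0538). The median over all genes tested was itself -0.11 in this comparison. The count of 4 fell to 2 with quantile normalization or without siRpl11 replicate 1, and to 1 without siRpl11 replicate 2 or without siNT replicate 1.

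Set against each other, the ribosomal knockdowns differed at every member. The family sum of siRpl14 was 4.11 times that of siRpl11, a difference of log2 1.70 (Zscan4c) to 2.11 (Zscan4d) in the fit. All 5 members were called higher in siRpl14 than in siRpl11 (limma, adjusted p = 0.000338 to 0.00127), where 13.4% of all genes were called. In set 3 the single siRpl11 library held 3.20 FPKM of the family, an estimated 2 fragments, against 14.2 and 10.9 FPKM in siNT.

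When siRpl11 was added to siRpl14, the rise was not seen. In set 1 the family sum was 33.4 and 32.0 FPKM in siRpl14+siRpl11, against 114 and 116 FPKM in siRpl14, or 28.5% of the siRpl14 mean. Rpl14 message overlapped between these groups, at 232 and 524 FPKM in siRpl14+siRpl11, against 893 and 402 FPKM in siRpl14. Zscan4d had 9.42 and 8.93 FPKM in siRpl14+siRpl11, against 35.7 and 36.2 FPKM in siRpl14. Zscan4c had 8.41 and 7.73 FPKM in siRpl14+siRpl11, against 24.5 and 25.6 FPKM in siRpl14. Groups were far apart for every member, and the spread within each pair was small beside the gap. All 5 members were called lower in siRpl14+siRpl11 than in siRpl14, by log2 -1.51 (Zscan4b) to -1.86 (Zscan4d), with adjusted p from 0.000961 to 0.00297 (limma). In that comparison 7.24% of all genes were called, 6.61% as lower.

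The combined libraries lay below the control too, by less. Zscan4a had 6.59 and 6.90 FPKM in siRpl14+siRpl11, against 11.6 and 9.64 FPKM in siNT, and Zscan4b had 3.70 and 3.39 FPKM against 3.95 and 4.13 FPKM. Limma called Zscan4a (-0.58, adjusted p = 0.0204), Zscan4d (-0.35, adjusted p = 0.0411) and Zscan4f (-0.41, adjusted p = 0.0467) lower, 3 of 5, where 41.6% of all genes were called and 25.0% as lower. Zscan4c was at -0.25 and Zscan4b at -0.15, and neither passed (limma, adjusted p = 0.139 and 0.375). The count fell to 1 with no filter on low values, with median-ratio scaling or with quantile normalization, and to 1 or 0 without either siRpl11, either siRpl14+siRpl11 or either siNT library, with 0 without siRpl14+siRpl11 replicate 1 or siNT replicate 1.

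A further comparison, chosen after the data were seen, set siRpl14+siRpl11 against siRpl11, so that siRpl14 was the added siRNA. The family sum was 33.4 and 32.0 FPKM in siRpl14+siRpl11, against 28.4 and 27.5 FPKM in siRpl11, and the log2 fold changes of the members were 0.17 to 0.25. Limma called 0 of 5 members and 0 of all 12129 genes (0.00%), with 387 genes and 0 members at an unadjusted p under 0.05. The rise with siRpl14 was thus smaller in cells that also received siRpl11. The difference between the changes, the interaction term of the fit, was -1.26 ± 0.16 for Zscan4d (SE; limma, adjusted p = 0.0211), -1.15 ± 0.18 for Zscan4b (adjusted p = 0.0258), -1.11 ± 0.17 for Zscan4c (adjusted p = 0.0258), -1.11 ± 0.20 for Zscan4f (adjusted p = 0.0312) and -0.87 ± 0.22 for Zscan4a (adjusted p = 0.0600). It was called for 4 of 5 members, all negative, where 4.49% of all genes were called and 2.65% as negative. All 4 calls were lost when any 1 of 6 libraries was left out (siRpl14 replicate 2, either siRpl11, siRpl14+siRpl11 replicate 2 or either siNT), with the count at 0. With siRpl14+siRpl11 replicate 1 left out the count was 3.

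**Figure D3:**
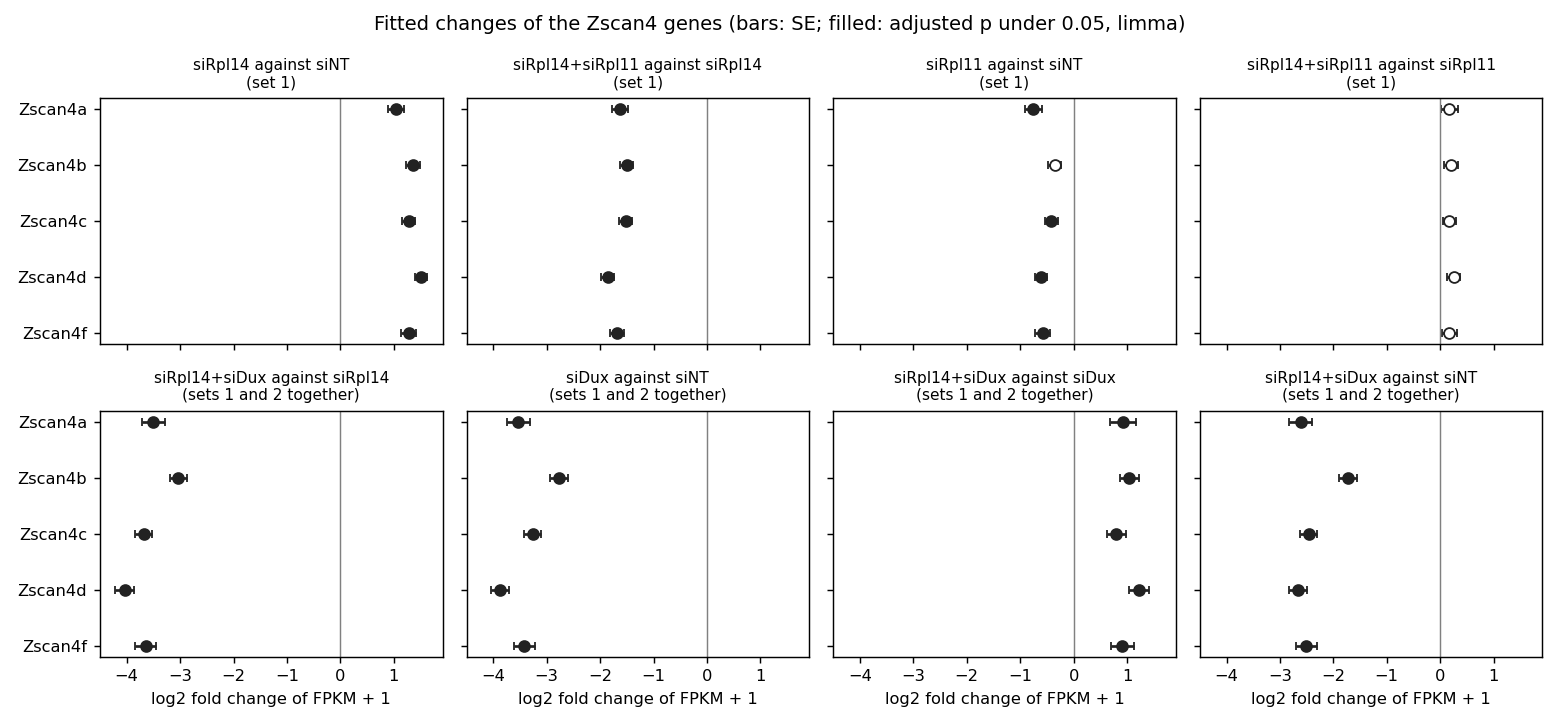
Log2 fold change of FPKM + 1 (horizontal axis) of each Zscan4 gene in 8 comparisons, with bars for the SE and filled points for an adjusted p under 0.05 (limma). The top panels are set 1 and the bottom panels sets 1 and 2 together; siRpl14 against siNT spans 1.05 to 1.51, and siDux against siNT spans -2.77 to -3.88.

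The other set of comparisons depleted Dux, the activator of these genes. In set 2 the siDux library held almost no Zscan4 RNA. The family sum was 3.23 FPKM in siDux, against 91.8 FPKM in siNT, or 3.52%. Zscan4d was at 0.688 FPKM in siDux, against 26.1 FPKM in siNT, and Zscan4c at 0.966 FPKM against 18.6 FPKM. The same held for Zscan4a (0.926 FPKM against 23.9 FPKM), Zscan4b (0.281 FPKM against 8.10 FPKM) and Zscan4f (0.372 FPKM against 15.2 FPKM). Every member was below 1 FPKM in siDux. Dux message itself was scarce in all libraries, at 0.0546 FPKM in siDux, against 0.306 FPKM in siNT of set 2. Dux is a repeated gene in mouse, so its reads may also be divided among copies.

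With siRpl14 and siDux together, Zscan4 stayed low. The family sum of set 2 was 11.2 FPKM in siRpl14+siDux, against 184 FPKM in siRpl14, 6.11% of it. Zscan4d was at 2.92 FPKM in siRpl14+siDux, against 58.1 FPKM in siRpl14, and Zscan4c at 2.43 FPKM against 41.3 FPKM. Against the control the combined library held 12.2% of the family sum. Against siDux alone it held 3.47 times as much, and each member was higher, with Zscan4b at 1.64 FPKM in siRpl14+siDux, against 0.281 FPKM in siDux. Dux stood at 1.495 FPKM in siRpl14, 0.168 FPKM in siRpl14+siDux and 0.0546 FPKM in siDux, against 0.306 FPKM in siNT, so the order of the 4 libraries of set 2 by Dux was also their order by Zscan4. In set 1 it was not: Dux had 0.524 and 0.687 FPKM in siRpl14+siRpl11 and 0.482 and 0.296 FPKM in siRpl11, against 0.368 and 0.202 FPKM in siNT, while the family sum was lower than in siNT in both.

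Set 2 has 1 library of each kind, so these differences were tested only in a fit of the 12 libraries of sets 1 and 2 with a term for the set, a choice made after the data were seen. That fit assumes that the lone siDux and siRpl14+siDux libraries vary like the other groups, so its SEs and p-values hold no spread of these 2 groups themselves. For siDux against siNT it called all 5 members lower, at log2 -3.88 ± 0.17 for Zscan4d, -3.53 ± 0.22 for Zscan4a, -3.42 ± 0.20 for Zscan4f, -3.26 ± 0.16 for Zscan4c and -2.77 ± 0.16 for Zscan4b (SE; limma, adjusted p = 2.03e-05 to 9.69e-05). Only 22 of 12375 genes were called in that comparison (0.178%), all 22 of them lower, and the 5 Zscan4 genes are among them. For siRpl14+siDux against siRpl14 all 5 were again called lower, by log2 -3.03 (Zscan4b) to -4.04 (Zscan4d), with adjusted p from 8.1e-06 to 6.56e-05 (limma), where 0.509% of all genes were called, 0.477% as lower. For siRpl14+siDux against siNT all 5 were lower by log2 -1.73 (Zscan4b) to -2.66 (Zscan4d), where 21.1% of all genes were called and 7.89% as lower (limma, adjusted p = 0.00013 to 0.000556).

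The single siRpl14+siDux library also stood above the single siDux library. For that comparison, with each spread taken from other groups, all 5 members were called higher, at log2 1.22 ± 0.19 for Zscan4d (limma, adjusted p = 0.00455), 1.04 ± 0.18 for Zscan4b (adjusted p = 0.00671), 0.92 ± 0.24 for Zscan4a (adjusted p = 0.0322), 0.91 ± 0.22 for Zscan4f (adjusted p = 0.0229) and 0.80 ± 0.17 for Zscan4c (adjusted p = 0.0168). In that comparison 17.5% of all genes were called, 10.9% as higher. The interaction of siRpl14 and siDux was called for 0 of 5 members (limma, 0 of 5 and 627 of 12375 genes at an unadjusted p under 0.05, 0.00% of genes called), with values from -0.42 ± 0.20 (Zscan4c) to 0.03 ± 0.28 (Zscan4a). With a pseudocount of 0.1 in place of 1 it turned to 0.739 for Zscan4b, 0.506 for Zscan4d and 0.613 for Zscan4f, so its sign for these genes depends on how values below 1 FPKM are treated. That a p misses the threshold does not show that the changes were alike.

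In set 3 all 5 members are listed at 0 in both siDux libraries, against 14.2 and 10.9 FPKM for the family in siNT. Dux itself is listed at 0 in the siNT and the siDux libraries of set 3 alike, so its depletion cannot be checked there. The family sum was 1.99 and 7.35 FPKM in siRpl14+siDux, an estimated 1 and 3 fragments, against 38.4 and 45.1 FPKM in siRpl14, an estimated 19 and 26 fragments. In the siRpl14+siDux libraries Zscan4b, Zscan4c and Zscan4d are listed at 0, Zscan4a had 1.99 and 4.65 FPKM, and Zscan4f was at 0 and 2.70 FPKM. The siRpl14 libraries lay above both siRpl14+siDux libraries for each of the 5 members, which was not counted over all genes. Limma called 0 of 5 members for siDux against siNT (4 of 5 at an unadjusted p under 0.05, 0.00758% of genes called), 0 of 5 for siRpl14+siDux against siRpl14 (5 of 5 unadjusted, 0.0152% called), 0 of 5 for siRpl14+siDux against siNT (3 of 5 unadjusted, 1.02% called) and 0 of 5 for the interaction (0 of 5 unadjusted, 0.0152% called). In set 3 the single siRpl14+siRpl11 library held 1.72 FPKM of the family, all of it Zscan4c and an estimated 1 fragment.

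**Figure D4:**
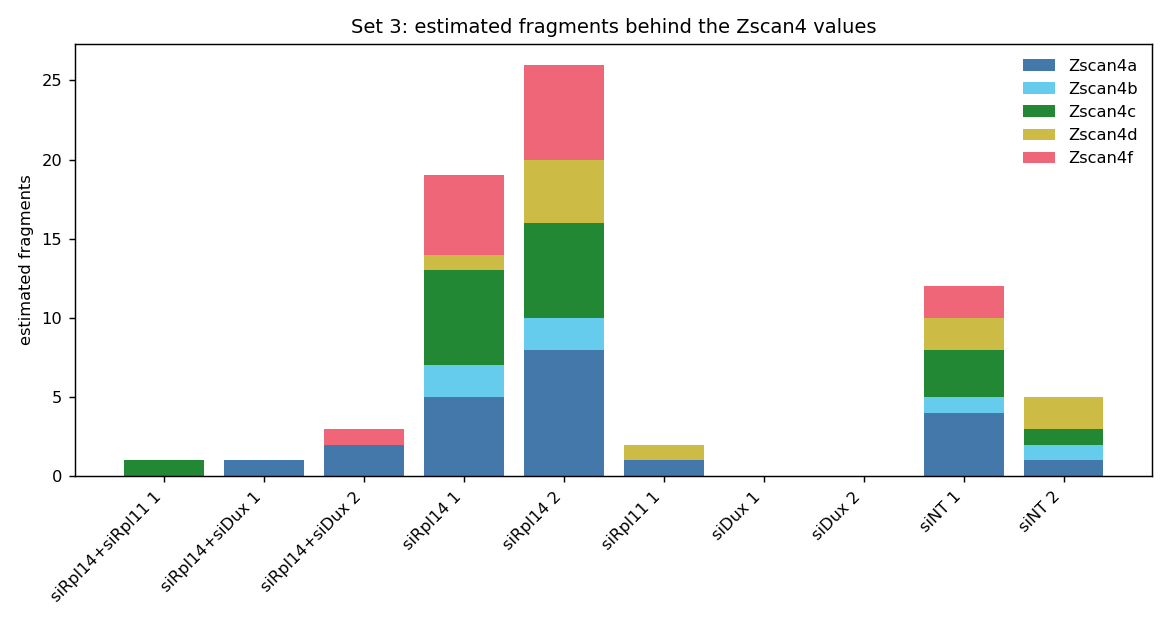
Estimated fragments behind the Zscan4 values of set 3 (vertical axis), stacked by gene, for each of its 10 libraries. The siRpl14 libraries hold 19 and 26 fragments, the siNT libraries 12 and 5, and every other library 3 or fewer, with 0 in both siDux libraries.

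Among themselves the members kept similar proportions in set 1. They did so less in the siDux library of set 2, where Zscan4 values were low, and in the shallow libraries of set 3. In siNT of set 1 the order by mean FPKM, which is per length, was Zscan4d (12.02 ± 0.971), Zscan4a (10.6 ± 1.38), Zscan4c (9.78 ± 1.16), Zscan4f (7.196 ± 0.970) and Zscan4b (4.04 ± 0.130, SD, n = 2 each). The libraries of Zscan4d and Zscan4a overlapped, as did those of Zscan4a and Zscan4c, and the other neighbours in that order did not. Over the 8 libraries of set 1, Zscan4d made up 24.7 to 31.4% of the family sum, Zscan4c 21.4 to 26.1%, Zscan4a 17.8 to 25.6%, Zscan4f 15.1 to 17.7% and Zscan4b 8.70 to 11.1%. The share of Zscan4d was 31.2 to 31.6% in the 3 siRpl14 libraries of sets 1 and 2, against 25.0 to 30.3% in the 3 siNT libraries. That of Zscan4a was 17.8 to 22.3% in siRpl14, against 23.0 to 26.0% in siNT. For these 2 members the siRpl14 and siNT libraries of sets 1 and 2 did not overlap, which was not tested. In set 3 the share of Zscan4d went the other way, at 4.62 and 13.9% in siRpl14 (an estimated 1 and 4 fragments), against 14.7 and 37.0% in siNT (2 fragments each). Zscan4a overlapped there, at 25.1 and 29.7% in siRpl14, against 32.6 and 20.1% in siNT. Zscan4f was 29.3 and 26.0% of the sum in siRpl14 of set 3, against 19.6 and 0% in siNT. In the siDux library, where every value was below 1 FPKM, Zscan4c was 29.9% and Zscan4f 11.5% of the sum. Over the 12 libraries the 10 pairs of members correlated at r = 0.974 to 0.997 on log2(FPKM + 1), a description of values that may share reads.

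**Figure D5:**
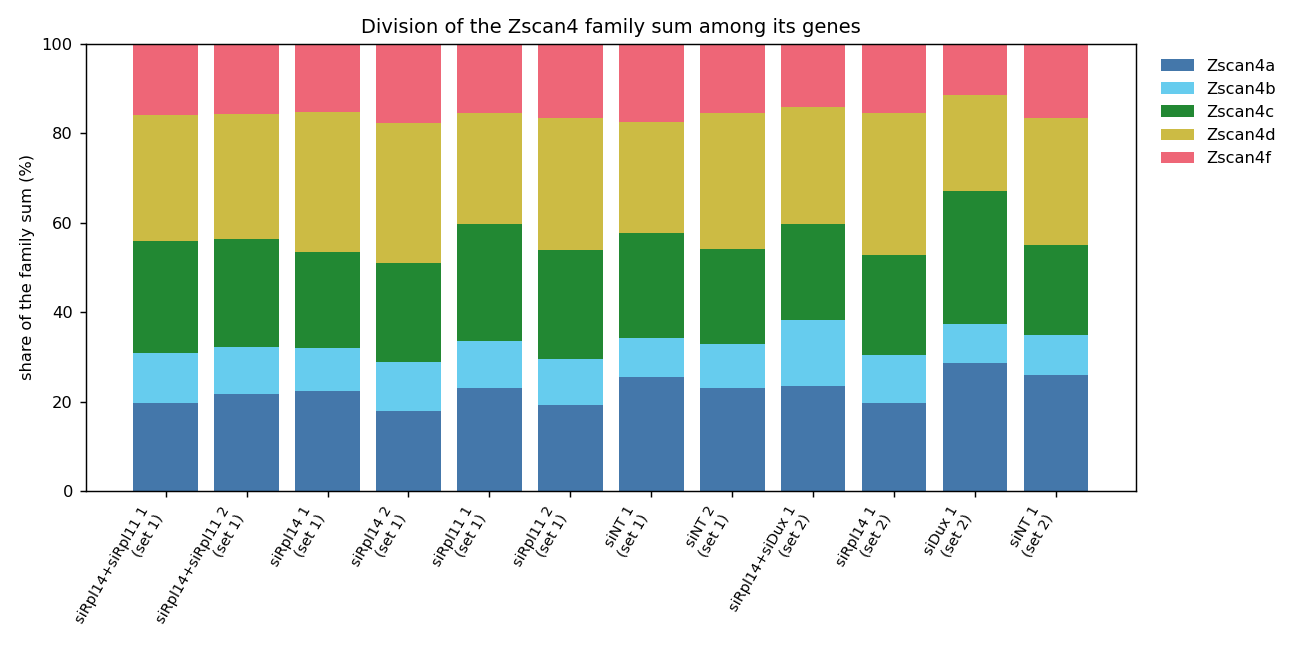
Share of the Zscan4 family sum held by each gene (vertical axis, percent) in the 12 libraries of sets 1 and 2. Zscan4b is the smallest part of every bar except that of siRpl14+siDux, and Zscan4d is 31.2 to 31.6% of the siRpl14 bars, against 25.0 to 30.3% of the siNT bars.

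Outside the family, the genes with the most similar pattern were taken by correlation with the family sum on log2(FPKM + 1) over the 12 libraries of sets 1 and 2, among 11593 genes with a mean of at least 1 FPKM. The 10 at the top had r from 0.942 to 0.975, and from 0.456 to 0.829 over the 10 libraries of set 3. In order they were Gm5039, Gm5662, Gm2016, Gm8994 (Eif4a3l1 in RefSeq), Gm8300, Gm4971, Gm2022, Usp17le, Gm12794 (Pramel19) and Gm13119 (Pramel31), of which Gm5039 and Gm4971 are annotated as transcribed pseudogenes. Of these, 7 stand in the list of 2C-like genes used here. Gm5039 had 24.3 and 22.5 FPKM in siRpl14, against 6.33 and 4.85 FPKM in siNT of set 1, and 0.479 FPKM in siDux, against 14.5 FPKM in siNT of set 2. Usp17le, of a family of ubiquitin-removing enzymes, had 19.9 and 15.7 FPKM in siRpl14, against 5.26 and 5.14 FPKM in siNT of set 1. The libraries share depth and scaling, and these coefficients describe 12 points that fall into few kinds of library.

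The other genes of the 2C-like state were mostly called in the same direction as Zscan4 with siRpl14, and mostly not called with siRpl11. Of 64 such genes in the list, 35 were tested in set 1, and with siRpl14 29 were called higher and 2 lower than in siNT (18.1% of all genes were higher), with a median of log2 1.22 against 0.03 over all genes tested. A gene could pass the filter by reaching 1 FPKM in the 2 siRpl14 libraries alone, the group where such genes are high. How many did so was not counted, and the list was chosen with earlier results of these data known. The counts and medians of this list are therefore descriptions and no independent support. Usp17lb (2.38 ± 0.14; limma, adjusted p = 0.000242), Usp17la (1.97 ± 0.14, adjusted p = 0.000469) and Gm2022 (1.88 ± 0.13, adjusted p = 0.000469) had the lowest adjusted p. The 2 lower ones were Ctsl (-0.47), a lysosomal protease widely used outside this state, and Patl2 (-1.10), an oocyte RNA-binding protein. With siRpl11 the list had 3 higher and 5 lower of 35 (median -0.11, as over all genes), where 44.3% of all genes were called. In siRpl14+siRpl11 against siNT it had 5 higher and 3 lower (median 0.10, against -0.07 over all genes), where 41.6% of all genes were called. In siRpl14+siRpl11 against siRpl14 it had 0 higher and 26 lower (median -1.15, against -0.09 over all genes), where 6.61% of all genes were lower. In the fit of sets 1 and 2, siDux and siRpl14+siDux are 1 library each, so only medians are given. The median of the list was -0.85 for siDux against siNT (0.019 over all genes tested). It was -1.86 for siRpl14+siDux against siRpl14 (0.0073 over all genes). For siRpl14+siDux against siDux it was 0.28 (-0.0051 over all genes). Comparisons that share a control group are not independent of each other.

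Known activators of Zscan4 or of the 2C-like state gave 5 higher and 0 lower of 12 tested with siRpl14 against siNT in set 1. In that comparison 31.5% of all genes were called, 18.1% as higher. The 5 activators included Nelfa (0.66 ± 0.11; limma, adjusted p = 0.00564), Dux (0.83 ± 0.15, adjusted p = 0.00789) and Dppa2 (1.07 ± 0.26, adjusted p = 0.0192). Dux had 1.45 and 1.11 FPKM in siRpl14, against 0.368 and 0.202 FPKM in siNT, and 0.524 and 0.687 FPKM in siRpl14+siRpl11. In set 1 only the siRpl14 libraries reached 1 FPKM for Dux, so it passed the filter through the group where it is high. Its tests, and its place in the count above, rest on that selection and are no independent support. For Dux, siRpl14+siRpl11 was below siRpl14 by log2 -0.50 ± 0.15, which missed the threshold (limma, adjusted p = 0.0877). Dppa2, a chromatin protein that opens the Dux locus together with Dppa4, had 77.0 and 116 FPKM in siRpl14, 99.4 and 131 FPKM in siRpl11 and 125 and 88.2 FPKM in siRpl14+siRpl11, against 37.9 and 52.3 FPKM in siNT. Its levels in the 3 knockdown groups overlapped one another and lay above siNT. Its partner Dppa4 was at -0.23 with siRpl14 and missed the threshold (limma, adjusted p = 0.0931). With siRpl11, 44.3% of all genes were called, 28.4% as lower. The activators there had 5 higher, with Trp53 (1.71; limma, adjusted p = 0.00371) and Dppa2 (1.34, adjusted p = 0.00667) among them, and 2 lower, of which Tbx3, a transcription factor of pluripotent cells, was at -0.77 (adjusted p = 0.0203). Trp53 was not particular to siRpl11: it was also called higher with siRpl14 (1.00; limma, adjusted p = 0.0254) and with siRpl14+siRpl11, each against siNT. None of the 12 was called in siRpl14+siRpl11 against siRpl14, where 7.24% of all genes were called.

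Known repressors gave 5 higher and 2 lower of 31 tested with siRpl14, and 12 higher and 3 lower with siRpl11. In both directions together these shares were near or below those of all genes (31.5% called with siRpl14 and 44.3% with siRpl11). By direction, 18.1% of all genes were higher with siRpl14. With siRpl11 most calls among all genes were lower (28.4% of all genes), while most calls among the repressors were higher. Those higher with siRpl14 included Daxx, a histone chaperone (0.65; limma, adjusted p = 0.0144), and Lin28a, an RNA-binding protein (0.97, adjusted p = 0.0146), while Uhrf1 (-0.60, adjusted p = 0.0304) and Setdb1 (-0.38, adjusted p = 0.0437), both of heterochromatin, were lower. Rif1, which binds telomeres and represses Zscan4 in mouse cells, was higher with siRpl14 (0.61, adjusted p = 0.0312) and with siRpl11 (0.73, adjusted p = 0.0121). Trim28, a corepressor of retroelements, was at 0.23 with siRpl14 (limma, adjusted p = 0.247) and was higher with siRpl11 (0.44, adjusted p = 0.0392). None of the 31 repressors was called in siRpl14+siRpl11 against siRpl14, where 7.24% of all genes were called.

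Among genes of the processes Zscan4 is known for and other SCAN domain genes, the share called with siRpl14 differed by list. Of 22 telomere maintenance genes tested, 1 was higher, Wrap53, the telomerase trafficking protein whose gene overlaps Trp53 on the other strand (1.46; limma, adjusted p = 0.00165), and 1 was lower, Nop10 (-0.53, adjusted p = 0.0499). Of 8 meiotic recombination genes tested, 2 were higher, Hormad1 (1.66, adjusted p = 0.00558) and Tex15 (0.82, adjusted p = 0.00848), and Dmc1 was lower (-0.80, adjusted p = 0.00697). Of 12 DNA methylation and demethylation enzymes, 4 were higher, among them Dnmt3l (0.72, adjusted p = 0.00411), Apobec1 (1.05, adjusted p = 0.00799) and Dnmt3b (0.62, adjusted p = 0.0121), and 2 were lower, Gadd45b (-1.19, adjusted p = 0.00458) and the Uhrf1 named above. Of 22 other SCAN domain genes tested, 2 were higher, Zscan22 (1.22, adjusted p = 0.00992) and Zscan25 (0.91, adjusted p = 0.0203), and 0 were lower. In this comparison 18.1% of all genes were called higher and 13.4% lower. The telomere and SCAN domain lists held smaller shares of higher calls than all genes did. The meiotic and methylation lists held larger ones, over 8 and 12 genes. None of these 4 lists reached the share of higher calls seen among the 2C-like genes. In siRpl14+siRpl11 against siRpl14, 7.24% of all genes were called, 6.61% as lower. The telomere list there had 1 higher (Nbn) and 3 lower (Tert, Wrap53 and Ctc1) of 22. The methylation list had 2 higher (Dnmt3b and Dnmt3a) and 0 lower of 12. The meiotic list had 1 higher (Smc1b) and 1 lower (Rec8) of 8, and the SCAN domain list 0 called of 22. Dnmt3b was at 0.84 (limma, adjusted p = 0.0118) and Wrap53 at -0.80 (adjusted p = 0.0233).

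Markers of other lineages were low beside those of embryonic stem cells. Those of trophectoderm summed over 6 genes to 16.6 to 30.6 FPKM in siRpl14, 8.97 to 9.68 FPKM in siRpl14+siRpl11 and 7.61 to 9.24 FPKM in siRpl11, against 15.1 to 16.7 FPKM in siNT of set 1, so that siRpl14 and siNT overlapped. In set 2 they summed to 82.8 FPKM in siRpl14+siDux, 43.0 FPKM in siRpl14 and 11.1 FPKM in siDux, against 11.2 FPKM in siNT, and Elf5 is listed at 0 in siRpl14+siDux and siRpl14 of set 2 and in siRpl14+siRpl11 and siRpl11 of set 1. The highest sum was thus in the siRpl14+siDux library, where Zscan4 was low. In siRpl14 against siNT of set 1, 31.5% of all genes were called, 18.1% as higher, and the calls of markers that follow are from that comparison. Of 4 trophectoderm markers tested, 1 was called, Gata3, as higher (1.40; limma, adjusted p = 0.00576). Of 5 primitive endoderm markers, which summed to 2.72 to 8.35 FPKM in sets 1 and 2, 3 were tested and 0 called (limma). The 1 feeder marker tested, Thy1, was lower (-1.19, adjusted p = 0.0103), and Postn and Dcn were listed at 0 in all libraries of set 1. Embryonic stem cell markers summed to 5483 to 6025 FPKM in siRpl14, against 7982 to 8889 FPKM in siNT of set 1. Of 8 tested, 1 was higher, Sox2 (0.34; limma, adjusted p = 0.0439), and 2 were lower, Dppa5a (-0.75, adjusted p = 0.00743) and Tdgf1 (-0.73, adjusted p = 0.0105). The part of these markers in the Zscan4 result was not tested.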

How the data were processed

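RNA of E14 cells was extracted with Trizol, treated with DNase and made into stranded mRNA libraries, per the labels' protocols. The deposited values are FPKM for 24819 genes in 2 tables, made by the authors with STAR and Cuffnorm on mm9, per the submitters' processing notes. Their versions, the annotation, the strand setting and the normalization are not stated in these notes or the labels, and the tables may have been normalized separately. Counts were not used here.

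Sets 1 and 3 were each fitted with limma 3.58.1 (R 4.3.3, statmod 1.5.0; trended, robust empirical Bayes) on log2(FPKM + 1), keeping genes that reached 1 FPKM in 2 or more libraries, Benjamini-Hochberg threshold 0.05, after a check on simulated data. The fit of set 3 used its 4 kinds of library with replicates, without siRpl11 and siRpl14+siRpl11. Family sums have no test. In set 3, an FPKM was divided by an estimate of what 1 fragment is worth. How that worth differs between libraries came from genes above 0 in few libraries. Its scale was fitted to each member's own values so that the quotients fell near whole numbers. That all lay within 0.103 of a whole number (tolerance 0.25) is therefore no check of the estimates. The fragment numbers are the smallest found within that tolerance. Alternatives were the pseudocount, filters, scaling, replicate block and leaving out each library.

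The members and the 11 gene lists were chosen with earlier results of these data known. Named are the siRNA targets, Dppa2, Dppa4, Rif1 and Trim28, up to 3 list genes per direction with the lowest adjusted p (a few more are repeated across comparisons), the 10 genes most like the family sum and the nearest neighbours; 1 gene that this rule names is not reported here.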

Additional observations from a re-analysis of the deposited data

Results flagged for a closer look

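The change with siRpl14 differed between cells that did and did not also receive siRpl11 for 4 members in set 1. The interaction, siRpl14+siRpl11 against siRpl11 minus siRpl14 against siNT, was -1.26 for Zscan4d, -1.15 for Zscan4b, -1.11 for Zscan4c and -1.11 for Zscan4f on the log2(FPKM + 1) scale (limma, adjusted p = 0.0211 to 0.0312), and Zscan4a, at -0.87, missed the threshold (adjusted p = 0.0600). In mean FPKM, Zscan4d was at 9.18 in siRpl14+siRpl11 against 7.57 in siRpl11, and at 36.0 in siRpl14 against 12.02 in siNT. All 4 calls were lost when any 1 of 6 of the 8 libraries was left out.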

How the results depend on the processing

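Scaling, pseudocount, filter on low values, a replicate block and leaving out each library were tried. All 5 members were called under every alternative for siRpl14 against siNT (15 alternatives), siRpl14+siRpl11 against siRpl14 (14) and siRpl14 against siRpl11 (14) in set 1. In siRpl11 against siNT the count of 4 was 2 with quantile normalization, and 1 to 4 with a library left out. In siRpl14+siRpl11 against siNT the count of 3 was 1 with no filter, median-ratio scaling, quantile normalization or the replicate block, and 0 to 2 with a library left out. The interaction count of 4 was 0 with the replicate block, where the numbers were not taken as pairs because not every r of same-numbered deviations was over 0.1 (set 1: 0.169 to 0.466 among siRpl14, siRpl11 and siNT, -0.451 to -0.222 between siRpl14+siRpl11 and each of these; set 3: 0.0383 to 0.0613), and 0 to 4 with a library left out. For siRpl14+siDux against siDux in sets 1 and 2 together the count was 4 to 5. The cause of these moves was not tested.

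The log2 ratio of the family sums moved by more than the spread of replicates with median-ratio scaling for siRpl11 against siNT (-0.543), siRpl14+siRpl11 against siRpl14 (-1.71) and siRpl14 against siRpl11 (1.90), and with quantile normalization for the same comparisons (-0.433, -1.66 and 1.81), for siRpl14+siRpl11 against siNT (-0.286) and for siRpl14+siDux against siNT in set 2 (-3.14), all in the same direction as before.

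Signs turned only for values that had no call. With quantile normalization Zscan4b in siRpl14+siRpl11 against siNT was 0.0427. In set 3, siRpl14+siDux against siNT was 0.0214 (median-ratio scaling), 0.00683 (quantile normalization) and -0.500 to 0.416 with a library left out for Zscan4a, and 0.0374, 0.0405 and -0.972 to 0.945 for Zscan4f. Leaving out a library gave -0.508 to 0.880 for Zscan4d in siRpl14 against siNT, -0.880 to 0.508 for its interaction, and -1.92 to 0 for Zscan4f in siDux against siNT. In sets 1 and 2 together the interaction of siRpl14 and siDux turned to 0.739 (Zscan4b), 0.506 (Zscan4d) and 0.613 (Zscan4f) with a pseudocount of 0.1, and to -0.00343 or -0.127 for Zscan4a with a library left out. A mean filter of 5 FPKM left no member to test in set 3. Depth limits set 3, where 1 fragment decides whether a member is listed at 0.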
